A study of Mus musculus with 4 samples.

Results

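Imprinted growth-control genes are genes read from only the maternal or only the paternal chromosome, many of which set the growth of the embryo and placenta. The group was given as a list of 10 genes (H19, Meg3, Dlk1, Peg3, Plagl1, Cdkn1c, Mest, Grb10, Ndn and Zim1). Its members are the probe sets whose platform annotation names only 1 gene, which must be on that list. This gave 35 probe sets for 9 of the 10 genes, out of 45037 probe sets and 18193 genes measured. H19 had no probe set of its own, since the probe set that carries its name also carries that of Mir675. The probe set with the largest average signal across the 4 arrays stands for each gene. The others are described beside it.

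The arrays measured RNA of podoplanin-selected cells from axillary lymph nodes of female SCID/NOD mice aged 6 to 8 weeks, which carried subcutaneous tumours of human 293 cells. In the metastatic group the tumour cells were 293-VEGF-D, which overexpress the lymphatic growth factor VEGF-D, and in the non-metastatic group they were 293-Apex. Each group had 2 biological replicates with 1 array each, and each preparation pooled the nodes of 1 to 5 mice, harvested 3 to 4 weeks after injection, when a tumour measured 1600 to 2500 mm3. Metastatic nodes were used only when visibly enlarged. In both groups the stromal cells were kept for a short time in EGM-2 MV medium before podoplanin selection, so the values are those of cultured cells. The sorting label states a depletion of tumour cells and leukocytes before culture for the metastatic preparations only, while the growth protocol does not separate the groups. VEGF-D, node enlargement and the labelled depletion therefore cannot be told apart from metastasis. All values are log2 signals per probe set, so that a difference of 1 is 2-fold. The level of one probe set cannot be set against that of another.

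The sample titles call the cells LN EC, read here as lymph node endothelial cells, and marker genes were looked at beside this label. In the test between the groups none of the markers named here passed. Podoplanin itself, Pdpn, had log2 signals of 10.89 and 10.83 in metastatic replicates 1 and 2 and 10.35 and 10.35 in the non-metastatic ones. Its difference was 0.51 (SE 0.11, limma adjusted p = 0.424), higher on each metastatic array. The lymphatic receptor gene Lyve1 had 6.32 and 4.23 against 8.26 and 7.80 (difference -2.76, SE 0.64, limma adjusted p = 0.498), and the endothelial gene Emcn 6.50 and 5.66 against 8.77 and 8.45 (-2.53, SE 0.29, adjusted p = 0.185). Lyve1 and Emcn were lower on each metastatic array, but the markers did not all go that way. Of 8 blood endothelial markers 5 were lower and 3 higher in the metastatic group. Of 6 lymphatic ones, Pdpn and Lyve1 among them, 4 were lower and 2 higher. The part of endothelial cells in the results was not tested. Other endothelial genes ranged from Eng, at 9.82 to 10.57, to Pecam1, at 4.76 to 5.36, and the lymphatic regulator Prox1, at 3.74 to 4.17. The fibroblast collagen gene Col1a2 had 14.13 to 14.33. The median probe set mean was 5.95, and genes under it are called dim. This is a rough guide only, since probe sets differ in how strongly they respond. By this guide Pecam1 and Prox1 were dim, at means of 4.94 and 4.00, and Eng was not, at 10.29. With 4 arrays the precision of each value is limited.

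Imprinting marks are laid down in the germ line as DNA methylation and tell the parental copies apart. Many paternally expressed genes promote growth and many maternally expressed ones restrain it, and several of them are bright in the embryo and fall after birth, staying on in progenitor and stromal cells. Of the measured members, 5 are paternally expressed (Dlk1, Peg3, Plagl1, Mest and Ndn) and 4 maternally expressed (Meg3, Cdkn1c, Grb10 and Zim1). The arrays measure total RNA and do not show which parental copy it came from.

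None of the 9 genes differed between the groups by the test across all probe sets. limma with Benjamini-Hochberg adjustment called 0 of 9 at 0.05, where it called 0 of all 45037 probe sets (0%), and the smallest adjusted p of a representative was 0.779. At an unadjusted p under 0.05 there was 1 of 9, Ndn, which was lower, where 6.7% of all genes had such a p and 4.07% were lower with it. With centred array medians, or with brighter probe sets only, there was none. The groups did not overlap for 1 of 9, again Ndn, where this held for 34.6% of all genes. With the deposited values in place of normalized ones it held for 3, Dlk1, Ndn and Zim1, beside 33.1% of all probe sets. The differences, metastatic minus non-metastatic, ran from -0.33 for Ndn to 0.18 for Peg3, with 5 genes above 0 and 4 below. Their median was 0.07, beside -0.00034 over all genes, and it turned to -0.0018, -0.17 and -0.13 without metastatic replicate 1, non-metastatic replicate 1 and non-metastatic replicate 2. Of the paternally expressed members 2 were above 0 and 3 below, and of the maternally expressed members 3 were above and 1 below. For 8 of the 9 genes the group difference was smaller than the wider of the gaps between replicates of a group, which was so for 77.4% of all genes. The median range over the 4 arrays was 0.52 for the members and 0.29 for all genes.

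**Figure D1:**
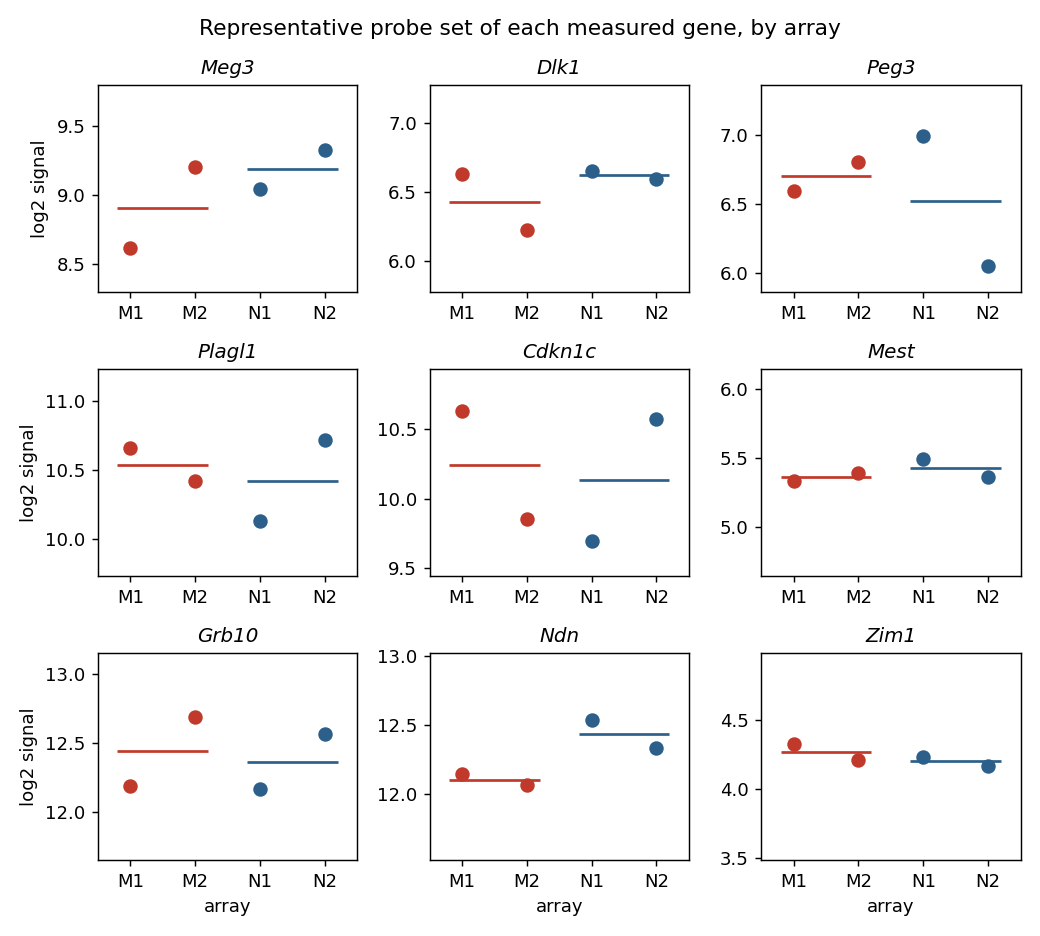
Log2 signal (y axis, of the same height in every panel) of the representative probe set of each of the 9 genes on each array (x axis; M1 and M2 are metastatic replicates 1 and 2, N1 and N2 non-metastatic ones), with a bar at the group mean. Both red points lie below both blue ones for Ndn and for no other gene in these normalized values, and the points of Cdkn1c and Peg3 spread most within groups. With the deposited values Dlk1 and Zim1 separate as well, where 33.1% of all probe sets do.

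The brake on insulin and growth factor signalling gave the widest disagreement between probe sets. Grb10 encodes an adaptor that binds the insulin and insulin-like growth factor receptors and limits growth, and it is maternally expressed in most tissues. Its representative probe set, 1425458_a_at, had 12.19 and 12.69 in metastatic replicates 1 and 2 and 12.17 and 12.57 in the non-metastatic ones. The groups overlapped there, a metastatic array being the highest and a non-metastatic one the lowest, at a difference of 0.08 (SE 0.22, limma adjusted p = 0.989).

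The other 2 probe sets of Grb10 were higher on both metastatic arrays. 1425457_a_at had 9.05 and 9.70 against 8.20 and 8.93, a difference of 0.81 (SE 0.31) or 1.75-fold, with an unadjusted p of 0.0412 and a limma adjusted p of 0.788. 1430164_a_at had 7.83 and 8.25 against 7.02 and 7.63, a difference of 0.71 (SE 0.24) or 1.64-fold, with an unadjusted p of 0.0276 and a limma adjusted p of 0.731. Neither passed, and the unadjusted p was under 0.05 for 6.06% of all probe sets, with 2.95% higher and 3.12% lower in the metastatic group. In both, replicate 2 was the higher array of each group, and the lowest metastatic array lay just above the highest non-metastatic one. Leaving out single arrays moved these differences between 0.44 (non-metastatic replicate 1 dropped) and 1.17 (non-metastatic replicate 2 dropped) for 1425457_a_at and between 0.41 and 1.02, without the same arrays, for 1430164_a_at. It stayed above 0 in each case, whereas the representative turned to -0.17 without metastatic replicate 2 and to -0.12 when non-metastatic replicate 1 was dropped. Averaged over its 3 probe sets, Grb10 stood at 0.53 (SE 0.26). The suffix of all 3 probe sets marks probes shared by alternative transcripts of the gene, and which transcripts each reads was not analysed here.

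Grb10 is known to start from more than 1 promoter, and the RefSeq table for GRCm38.p6 lists 2 starts, so the bases just before each are shown to let them be told apart. The window chr11:12037421-12037670 and the window chr11:12027972-12028221, both on the minus strand, hold the 250 bases before the start. Of these bases 81.2% are G or C at the first start and 54% at the second, with 40 and 8 CG pairs. Neither window holds the letters of the motifs described further on, so no base is in capitals.
Grb10 start 1: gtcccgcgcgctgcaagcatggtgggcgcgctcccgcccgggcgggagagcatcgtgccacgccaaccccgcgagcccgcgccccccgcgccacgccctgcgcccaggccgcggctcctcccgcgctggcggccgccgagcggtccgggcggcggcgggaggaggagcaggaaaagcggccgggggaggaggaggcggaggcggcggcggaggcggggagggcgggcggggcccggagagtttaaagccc
Grb10 start 2: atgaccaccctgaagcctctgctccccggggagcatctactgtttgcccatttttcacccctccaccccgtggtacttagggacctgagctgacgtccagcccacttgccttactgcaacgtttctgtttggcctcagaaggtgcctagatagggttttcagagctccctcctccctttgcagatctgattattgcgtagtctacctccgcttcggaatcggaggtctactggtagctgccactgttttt

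**Figure D2:**
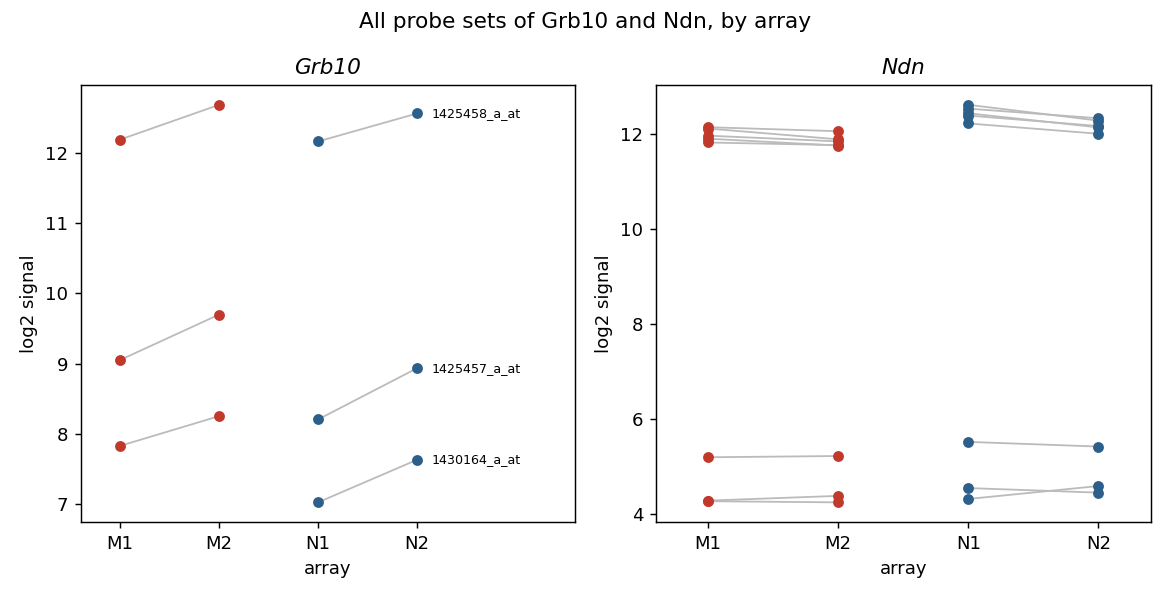
Log2 signal (y axis) of all 3 probe sets of Grb10 and all 8 of Ndn on each array (x axis; M1 and M2 metastatic, N1 and N2 non-metastatic), with lines joining the arrays of a group. The lower 2 probe sets of Grb10 are higher on the red arrays and the top one is not, while the bright probe sets of Ndn are all lower on the red arrays.

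Ndn encodes necdin, a protein of the MAGE family that holds back cell division and is known from neurons, muscle and fat progenitors. The representative probe set, 1435383_x_at, had 12.15 and 12.07 in the metastatic replicates and 12.54 and 12.34 in the non-metastatic ones. Both metastatic arrays were lower, and the closest arrays of the groups were 12.15 and 12.34. The difference was -0.33 (SE 0.12), or 1.26-fold lower signal, with an unadjusted p of 0.0386 and a limma adjusted p of 0.779, so it did not pass.

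All 8 probe sets of Ndn were lower in the metastatic group, by 0.12 to 0.46 log2 units, and for 7 of them the groups did not overlap, where 34.5% of all probe sets showed no overlap and 16% were lower without it. An unadjusted p under 0.05 was seen for 5 of the 8, the 5 bright ones with mean signals of 11.96 to 12.27. The other 3 were dim, at 4.39 to 5.35. These probe sets read the RNA of 1 gene on the same 4 arrays, and several carry the suffix for probes that can bind other transcripts, so they are not separate pieces of evidence. The difference of the representative stayed below 0 when any single array was left out, between -0.43, when non-metastatic replicate 2 was dropped, and -0.23, when non-metastatic replicate 1 was. Its unadjusted limma p did not stay under 0.05: it was 0.0534 with centred array medians, 0.0505 with brighter probe sets only and 0.0942, 0.252 and 0.0575 without metastatic replicate 2, non-metastatic replicate 1 and non-metastatic replicate 2.

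The marker genes of smooth muscle cells and pericytes were placed beside Ndn. Of these 9 genes 8 were lower in the metastatic group, 7 of them with an unadjusted p under 0.05 and none with an adjusted one (limma), beside 4.07% of all genes that were lower with such an unadjusted p. Actg2, a smooth muscle actin gene, had 7.04 and 6.93 against 8.84 and 8.85 (-1.86, SE 0.11, limma adjusted p = 0.0863). The summed linear signal of the 9 was 17769.9 and 28713 on the metastatic arrays and 36071 and 34049.6 on the non-metastatic ones. That sum comes mostly from the brightest genes, Acta2 (13.66 to 14.49) and Tagln (12.03 to 13.52), and does not describe all 9. Acta2 and Tagln were lowest on metastatic replicate 1, and Ndn on metastatic replicate 2. Lists of other cell types went both ways. Of 9 leukocyte markers 6 were lower, 3 of them with an unadjusted limma p under 0.05, and of 8 skeletal muscle markers 6 were higher, 1 with such a p. In pooled cell preparations fewer cells of a type and less RNA per cell cannot be told apart. The part of smooth muscle cells and pericytes in the Ndn values was not tested. The bases before the single RefSeq start of Ndn, chr7:62348027-62348276 on the plus strand of GRCm38.p6, are shown because this gene came nearest to a difference. They hold 47.2% G or C and 5 CG pairs, and neither motif.
Ndn start: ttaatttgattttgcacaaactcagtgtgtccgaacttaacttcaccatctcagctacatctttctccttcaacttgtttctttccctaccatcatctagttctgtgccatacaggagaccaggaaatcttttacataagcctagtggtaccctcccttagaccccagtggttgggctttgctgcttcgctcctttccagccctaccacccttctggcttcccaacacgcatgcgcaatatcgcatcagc

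**Figure D3:**
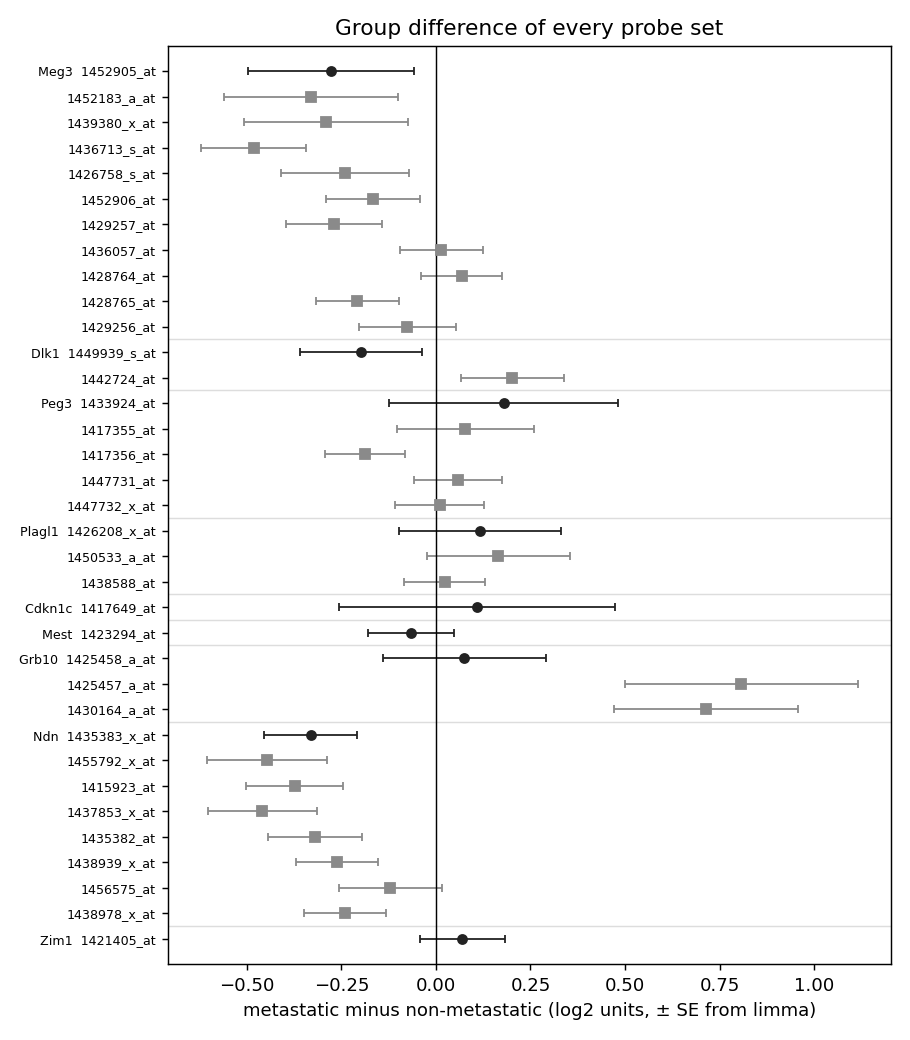
Metastatic minus non-metastatic difference in log2 units (x axis) of each of the 35 probe sets (y axis, ordered by gene and then by mean signal), with limma SEs as bars; black circles are the representatives and grey squares the other probe sets. All 8 probe sets of Ndn lie below 0 and all 3 of Grb10 above it, while those of Meg3, Dlk1 and Peg3 fall on both sides.

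Cdkn1c and Plagl1 did not separate the groups but varied within them, as other members did. The wider gap between replicates of a group was 0.88 for Cdkn1c and 0.58 for Plagl1. It was 0.94 for Peg3, 0.59 for Meg3 and 0.50 for Grb10. Cdkn1c encodes p57, a maternally expressed inhibitor of cyclin-dependent kinases that stops cell division. Its single probe set had 10.63 and 9.85 in the metastatic replicates and 9.69 and 10.57 in the non-metastatic ones. Metastatic replicate 1 and non-metastatic replicate 2 were the high arrays, and the groups overlapped almost completely. The difference was 0.11 (SE 0.36, limma adjusted p = 0.991), and leaving out metastatic replicate 1 gave -0.28, leaving out non-metastatic replicate 1 gave -0.33.

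Plagl1, a paternally expressed zinc finger transcription factor, was high on the same arrays. Its representative, 1426208_x_at, had 10.66 and 10.42 against 10.13 and 10.71, a difference of 0.12 (SE 0.21, limma adjusted p = 0.984). Leaving out metastatic replicate 1 gave -0.0018, and leaving out its non-metastatic counterpart in number gave -0.17. Its dimmer probe set 1450533_a_at had the same order of arrays, with 5.79 and 5.65 against 5.30 and 5.81. The third, 1438588_at, lay between 5.23 and 5.29 on all arrays.

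Cdkn1c had the widest range of the representatives over the 4 arrays, 0.94 log2 units. The genes whose profile over these 4 arrays, each centred on its own mean, was closest to it were Ctsk, with a root mean square difference of 0.10 log2 units, Fbxl2 (0.12), Rrad (0.14), Bid (0.14) and Atp1b1 (0.15). Ctsk encodes the bone and stromal protease cathepsin K, and Bid a protein of the cell death pathway. Plagl1 stood at 0.22, and 0.209% of the 18192 other genes were closer than it was. With 4 arrays such a likeness is a description and carries no test.

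Neither gene of the Dlk1 and Meg3 pair passed the test, and both differences turned sign when an array was left out. Meg3 is a maternally expressed long noncoding RNA. Its representative, 1452905_at, had 8.61 and 9.20 in the metastatic replicates and 9.04 and 9.33 in the non-metastatic ones. Metastatic replicate 1 was the lowest array, and metastatic replicate 2 lay between the non-metastatic arrays. The difference was -0.28 (SE 0.22, limma adjusted p = 0.958), and it was 0.02 without metastatic replicate 1.

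Of the 11 probe sets of Meg3, 9 were lower and 2 higher in the metastatic group, from -0.48 to 0.07. The groups did not overlap for 5 of them, beside 34.5% of all probe sets. Among the 5 was 1428764_at, which was higher in the metastatic group (0.07), while the others were lower. Of these 1436713_s_at, with 8.10 and 8.37 against 8.65 and 8.79, had an unadjusted p of 0.0145 and a limma adjusted p of 0.631. Rian and Mirg, noncoding RNAs transcribed beyond Meg3 in the same cluster and named here for that position, had differences of -0.23 (SE 0.12) and -0.23 (SE 0.17). The groups did not overlap for Rian and did for Mirg, and neither passed.

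Dlk1 is the paternally expressed neighbour of Meg3 and encodes a membrane protein with EGF-like repeats that keeps fat progenitors from maturing. Its representative, 1449939_s_at, had 6.63 and 6.22 in the metastatic replicates and 6.65 and 6.60 in the non-metastatic ones, a difference of -0.20 (SE 0.16, limma adjusted p = 0.962). Metastatic replicate 2 alone was low, and without it the difference was 0.0044. The other probe set, 1442724_at, went the opposite way, with 6.11 and 6.24 against 5.84 and 6.10 (difference 0.20, SE 0.14). The log2 ratio of Dlk1 to Meg3 changed by 0.08 between the groups (exact two-sided permutation test, p = 1, where the smallest possible p is 0.333).

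The 2 brightest probe sets of Peg3 were lowest in non-metastatic replicate 2, and its other 3 were not. Peg3 encodes a paternally expressed zinc finger protein. Its representative, 1433924_at, had 6.60 and 6.81 in the metastatic replicates and 6.99 and 6.06 in the non-metastatic ones. The non-metastatic arrays were the highest and the lowest, so the metastatic ones lay within their range. The difference was 0.18 (SE 0.30, limma adjusted p = 0.984), with 0.65 once non-metastatic replicate 1 was left out and -0.29 once the other was. 1417355_at showed the same order, with 6.46 and 6.49 against 6.65 and 6.15. 1417356_at, dim at a mean of 5.67, did not, with 5.58 and 5.56 against 5.76 and 5.77 and a difference of -0.19 (SE 0.11). The remaining 2 probe sets of Peg3 were dimmer still, at means of 3.60 and 3.69.

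Zim1, a maternally expressed zinc finger gene beside Peg3, was dim, with 4.33 and 4.21 in the metastatic and 4.23 and 4.17 in the non-metastatic replicates. Its difference was 0.07 (SE 0.11, limma adjusted p = 0.984), and the ratio of Peg3 to Zim1 changed by 0.11 (exact two-sided permutation test, p = 1, with 0.333 as the smallest possible). Mest, a paternally expressed gene for a hydrolase-like protein that marks growing mesoderm and fat, was dim as well. It had 5.33 and 5.39 against 5.49 and 5.36, a difference of -0.07 (SE 0.11, limma adjusted p = 0.984). Both genes lay under the median of all probe sets (5.95), so their small differences do not show that expression was unchanged.

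The windows of 250 bases before the RefSeq starts were searched for motifs known from imprinting. Of the 10 listed genes 8 were in the promoter table, with 12 windows, and Cdkn1c and H19 were not among them. The letters TGCCGC or, for the other strand, GCGGCA form the motif of ZFP57, a protein that keeps the methylation of imprinted copies. They were found in windows of 4 of the 8 genes (Meg3, Plagl1, Mest and Zim1), where 9.8% of 27018 genes had such a window. The letters GGGGCCCC, the same on both strands and known as a motif of PLAGL1, were found for Peg3 alone of the 8, where 1% of all genes had them. The ratio of observed to expected CG pairs had a median of 0.54 over the 12 windows and 0.37 over all windows, and the content of G and C was 60.2% against 52.4%. A match shows neither binding nor a mark. The windows of Mest (chr6:30737800-30738049, plus strand, its second listed start) and Peg3 (chr7:6730420-6730669, minus strand) are shown with the matches in capitals, as the examples of each motif.
Mest start 2: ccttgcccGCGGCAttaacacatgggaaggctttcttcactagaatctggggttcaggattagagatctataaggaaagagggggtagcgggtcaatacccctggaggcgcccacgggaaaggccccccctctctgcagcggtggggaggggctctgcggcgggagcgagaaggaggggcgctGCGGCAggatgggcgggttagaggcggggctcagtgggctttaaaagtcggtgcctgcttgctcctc
Peg3 start: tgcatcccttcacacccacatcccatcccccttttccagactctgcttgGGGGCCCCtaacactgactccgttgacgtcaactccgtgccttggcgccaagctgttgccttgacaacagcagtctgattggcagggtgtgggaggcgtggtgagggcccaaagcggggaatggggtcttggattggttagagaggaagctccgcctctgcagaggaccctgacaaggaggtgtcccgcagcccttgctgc

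The other imprinted genes measured did not move together either. Of 25 paternally expressed genes listed 19 were measured, with 8 above 0 and 11 below and a median of -0.05. Of 23 maternally expressed ones 21 were measured, with 10 above 0 and 11 below and also a median of -0.05. limma called 0 of these 40 at an adjusted p under 0.05, and 4 had an unadjusted p under 0.05, 1 higher and 3 lower, beside 2.63% and 4.07% of all genes. Groups did not overlap for 19 of the 40, beside 34.6% of all genes.

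Among the paternally expressed ones the most positive was Slc38a4, an amino acid transporter, with 7.27 and 6.69 against 6.21 and 6.32 (difference 0.72, SE 0.20, limma adjusted p = 0.624). The most negative was Nnat, the small membrane protein neuronatin, with 5.89 and 5.31 against 7.11 and 6.20 (-1.05, SE 0.34, adjusted p = 0.694). Peg10, a gene derived from a retrotransposon, was dim and stood at -0.34 (SE 0.12). Among the maternally expressed ones Tfpi2, an inhibitor of matrix proteases, had 10.29 and 10.41 against 11.23 and 10.90 (-0.71, SE 0.15, limma adjusted p = 0.426). Osbpl5 stood at -0.25 (SE 0.14), Ppp1r9a at 0.28 (SE 0.21) and the placental growth inhibitor Phlda2 at 0.21 (SE 0.13). None of these 7 genes passed.

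**Figure D4:**
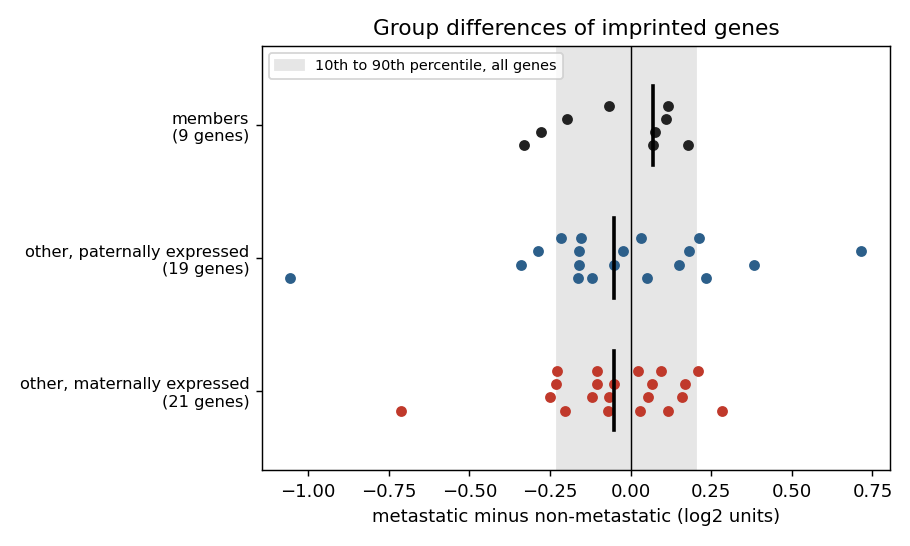
Metastatic minus non-metastatic differences in log2 units (x axis) of the 9 genes and of the 19 and 21 other measured imprinted genes by expressed parental copy, 1 point per gene, with a bar at each median; the grey band runs from the 10th to the 90th percentile of all genes (-0.23 to 0.20). The medians are 0.07, which turns below 0 without any of 3 single arrays, -0.05 and -0.05, and Nnat, Tfpi2 and Slc38a4 lie farthest out.

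Igf2, the paternally expressed growth factor that neighbours H19, differed far more between replicates than between groups. It had 7.85 and 9.52 in the metastatic and 7.47 and 9.13 in the non-metastatic replicates, a difference of 0.38 (SE 0.70, limma adjusted p = 0.984). The probe set 1448194_a_at, annotated to both Mir675 and H19 and therefore outside the group, had 7.96 and 10.55 in the metastatic and 5.80 and 9.50 in the non-metastatic replicates. Both arrays numbered 2 were high for it and for Igf2. Its range over the arrays was 4.75 log2 units, and its group difference was 1.61 (SE 1.34, limma adjusted p = 0.965). H19 is a maternally expressed noncoding RNA from which the microRNA miR-675 is cut, and the annotation gives the probe set both names. Its signal is not taken here as a level of the mature microRNA.

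The mature forms of miR-675 from the RefSeq table are shown because they share this probe set's annotation, with the seed, bases 2 to 8, in capitals. The seeds of the arms differ.
mmu-miR-675-5p: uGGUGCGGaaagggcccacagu
mmu-miR-675-3p: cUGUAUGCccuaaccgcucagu

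Of 8 skeletal muscle markers 7 were higher in replicate 2 of both groups, beside 5734 of all 18193 genes. So were 10 of 17 proliferation genes and 5 of 9 smooth muscle and pericyte markers, but 0 of 7 adipocyte markers. The summed linear signal of the 8 muscle markers was 654 and 1585 in metastatic replicates 1 and 2 and 474 and 1573 in the non-metastatic ones. Such a sum weighs the brightest genes most. The embryonic myosin gene Myh3, dim at a mean of 5.86, had 5.78 and 6.87 against 4.01 and 6.77. The muscle progenitor genes Myf5 and Pax7 were dim as well, at 3.33 to 3.56 and 4.51 to 4.65 over the arrays. All 3 probe sets of Grb10 were also higher in replicate 2 of each group, beside 13484 of all 45037 probe sets. The part of muscle-type cells in the Igf2, 1448194_a_at and Grb10 values was not tested.

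**Figure D5:**
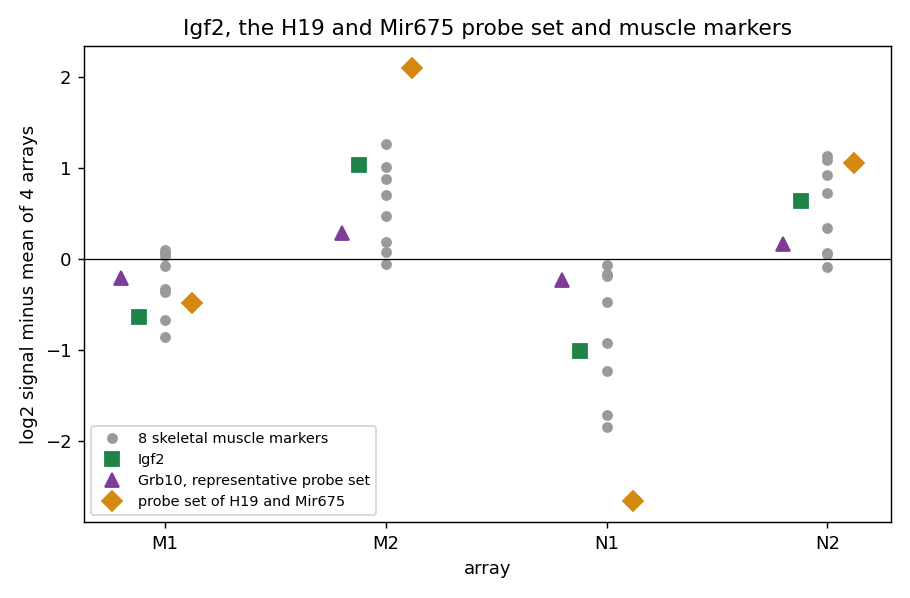
Log2 signal minus the mean of the 4 arrays (y axis) on each array (x axis; M1 and M2 metastatic, N1 and N2 non-metastatic replicates) for Igf2, the probe set annotated to H19 and Mir675, the representative of Grb10 and 8 skeletal muscle markers. Igf2, Grb10 and the H19 and Mir675 probe set are above 0 on M2 and N2 and below 0 on M1 and N1.

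The genes around the growth brakes were measured as context. Of the other 6 cyclin-dependent kinase inhibitors 5 were lower in the metastatic group, with 0 passing and 1 at an unadjusted p under 0.05 (limma), beside 6.7% of all genes, which is also the share to set beside the counts of the next lists. That was Cdkn2a, with 8.67 and 7.99 against 9.16 and 9.35 (-0.92, SE 0.23, adjusted p = 0.553). Cdkn2b stood at -0.36 (SE 0.21), Cdkn2c at -0.14 (SE 0.11) and Cdkn1b at 0.19 (SE 0.11). Of 17 measured proliferation genes 2 were above 0 and 15 below (median -0.21), 0 passing and 4 at an unadjusted p under 0.05, all lower. Rrm2 of nucleotide synthesis stood at -0.76 (SE 0.15) and the cyclin gene Ccne2 at -0.70 (SE 0.22), while Ccnb2 and Bub1 stood at 0.12 (SE 0.11) and 0.04 (SE 0.21).

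Of the 14 genes of insulin and insulin-like growth factor receptor signalling, on which Grb10 acts, 8 were above 0 and 6 below, with 0 passing and 2 at an unadjusted p under 0.05 (limma). Grb14, the adaptor most like Grb10 in function, had 6.96 and 6.76 against 7.61 and 7.78, a difference of -0.84 (SE 0.13, adjusted p = 0.321). Grb7, the third of this adaptor family, stood at -0.14 (SE 0.16). Shc1, an adaptor of the same receptors, had 10.49 and 10.68 against 10.14 and 10.35 (0.34, SE 0.13, adjusted p = 0.810). The groups did not overlap for 3 of the 14, Grb14 and Shc1 among them, where this held for 34.6% of all genes.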

How the data were processed

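Gene expression was measured on 4 Affymetrix arrays, 1 per preparation. The labelling used 3 ug of RNA and fragmented 20 ug of biotin-labelled cRNA, per the labels' protocols. The authors deposited log2 signals per probe set (3.10 to 14.87, as read from the values). For the summarising software and the normalization, the sources used here give no name. Array medians differed by 0.116, over a limit of 0.1, so the arrays were quantile normalized. Of 45101 probe sets, 64 controls were left out. The annotation gave 34945 a single gene symbol, 932 several and 9160 none. limma (lmFit, eBayes) had 2 residual and 3.71 prior degrees of freedom, with Benjamini-Hochberg adjustment over 45037 probe sets.

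The members and the lists of other genes were chosen with earlier results of these data known. Named were all members, from each of the 5 lists of imprinted, inhibitor, signalling and proliferation genes the 2 with the most positive and the 2 with the most negative differences, cell type markers that stand beside a result, and the 5 genes most like the member of widest range. Alternatives were the deposited values, centred array medians, brighter probe sets only, the mean of probe sets, an intensity trend with robust moderation, the replicate block and leaving out each array. Scripts were tested on simulated data. Sequences are RefSeq's for GRCm38.p6, with 250 bases before each start. R 4.3.3, limma 3.58.1, Python 3.11.15 and matplotlib 3.10.9 were used.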

Additional observations from a re-analysis of the deposited data

How the results depend on the processing

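No alternative called a member at an adjusted p under 0.05. In the 3 settings that change the values of all arrays, 30 of 31 differences of members and of the other Grb10 probe sets kept their sign, the exception being Dlk1 at 0.0021 when a gene's probe sets were averaged. Groups did not overlap for 3 members with the deposited values and for 2 with the mean of probe sets. The shares beside these were 33.1% of all probe sets and 35.4% of all genes. With centred array medians, and with the brighter probe sets only, 0 members had an unadjusted p under 0.05. Over all probe sets, an intensity trend with robust moderation called 5.

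The replicate number as a block called 145 probe sets and no member, with adjusted p values of 0.0715 and 0.104 for the Grb10 probe sets 1425457_a_at and 1430164_a_at. The labels do not state a pairing, and deviations of same-numbered arrays correlated at 0.25 over probe sets, in 2 pairs.

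Leaving out each array in turn, which leaves 1 residual degree of freedom and assumes that a lone array varies like the other group, gave -0.57 to 0.017 for Meg3, -0.40 to 0.0044 for Dlk1, -0.29 to 0.65 for Peg3, -0.17 to 0.41 for Plagl1, -0.33 to 0.55 for Cdkn1c and -0.17 to 0.32 for Grb10. The median of members ran from -0.17 to 0.0044, members with an unadjusted p under 0.05 from 0 to 2, beside 3.00% to 14.3% of all probe sets, and those without overlap from 3 to 7, beside 59.9% to 76.3%. Probe sets called ran from 0 to 67, with 67 without metastatic replicate 1. The causes were not tested.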
